A study of Mus musculus with 2 samples.

Results

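The genes described here are 38 genes of the inflammatory and immediate-early response, out of 26078 genes in the deposited count matrices. They were chosen by symbol, with earlier results of these data known, and all 38 symbols were found in both matrices. A first set of 21 holds cytokines, chemokines, NF-kB factors with their inhibitors, and other induced effectors. A second set of 17 holds AP-1 and other immediate-early factors, feedback brakes, KLF factors and the inducible heat shock genes. Their transcripts were counted in liver macrophage preparations of 2 samples, as unique molecular identifiers (UMIs), in single-cell RNA libraries made in droplets. By its title the series concerns the reprogramming of Kupffer cells, which are the macrophages resident in liver, into cells that take up red cells. The saline group received saline. The Ter119 group received Ter119, an antibody that binds red cells, as 1 subcutaneous dose of 35 ug followed by 10 daily doses of 10 ug. Both groups were C57BL/6J mice from the same supplier, 7 to 10 weeks old, housed free of specific pathogens. No allele or transgene is named for either group. Livers were digested 24 after the final dose (no unit is given), and macrophages were enriched on magnetic beads carrying antibodies to F4/80 and CD11b. Each group is 1 sample and 1 deposited matrix, called its library here, though the suspensions were pooled before capture. How many mice each sample holds was not established, and how cells were assigned to mice is not given. The effects of the treatment, the animals and the library thus cannot be told apart. No test between the groups exists, and every 95% interval below covers counting error only.

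As background, NF-kB is a family of transcription factors that inhibitor proteins hold in the cytoplasm until signals such as bacterial products or TNF release them. They then switch on cytokines, chemokines and their own inhibitors, which end the response. Immediate-early genes such as Fos and Egr1 are transcribed within minutes of many stimuli without new protein synthesis, and digestion of a tissue into single cells is itself known to induce them. Cxcl9 and Cxcl10 are known as chemokines induced by interferon gamma.

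Promoters are shown for 5 genes on which the results below turn: the neighbours Cxcl10 and Cxcl9, the inhibitor gene Nfkbia, and the feedback genes Dusp1 and Zfp36. Each is the stretch of 250 bases before the RefSeq start of the gene (GRCm38.p6), written on the strand of the gene, 5′ to 3′. Capitals mark matches to the NF-kB consensus, the interferon-stimulated response element, the AP-1 site (TGANTCA), the cyclic AMP response element (TGACGTCA) or the CArG box bound by serum response factor, searched on both strands. All 5 genes lie on the minus strand.
Cxcl10 promoter, chr5:92348890-92349139: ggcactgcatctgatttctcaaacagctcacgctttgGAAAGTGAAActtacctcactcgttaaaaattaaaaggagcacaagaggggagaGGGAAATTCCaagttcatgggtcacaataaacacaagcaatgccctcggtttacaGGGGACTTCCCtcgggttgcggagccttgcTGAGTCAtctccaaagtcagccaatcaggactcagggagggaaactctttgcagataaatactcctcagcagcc
Cxcl9 promoter, chr5:92328080-92328329: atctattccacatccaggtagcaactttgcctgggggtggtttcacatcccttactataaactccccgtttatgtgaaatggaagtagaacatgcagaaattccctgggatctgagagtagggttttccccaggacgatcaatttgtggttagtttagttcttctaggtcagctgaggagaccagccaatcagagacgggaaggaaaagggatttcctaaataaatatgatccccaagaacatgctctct
Nfkbia promoter, chr12:55492648-55492897: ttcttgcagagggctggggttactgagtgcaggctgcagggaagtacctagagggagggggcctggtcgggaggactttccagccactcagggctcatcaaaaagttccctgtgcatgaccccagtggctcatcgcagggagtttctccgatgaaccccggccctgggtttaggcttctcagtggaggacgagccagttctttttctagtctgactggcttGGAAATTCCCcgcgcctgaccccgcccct
Dusp1 promoter, chr17:26508473-26508722: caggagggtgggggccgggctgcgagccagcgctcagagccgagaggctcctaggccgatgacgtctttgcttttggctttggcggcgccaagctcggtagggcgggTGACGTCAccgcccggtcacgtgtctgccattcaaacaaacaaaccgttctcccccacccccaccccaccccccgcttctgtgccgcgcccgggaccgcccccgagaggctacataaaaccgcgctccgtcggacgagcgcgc
Zfp36 promoter, chr7:28379229-28379478: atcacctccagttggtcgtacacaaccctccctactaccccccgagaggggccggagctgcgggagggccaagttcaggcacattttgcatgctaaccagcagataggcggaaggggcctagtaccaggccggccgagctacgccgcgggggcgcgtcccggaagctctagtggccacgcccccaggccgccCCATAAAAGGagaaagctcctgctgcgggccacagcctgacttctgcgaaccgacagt
In these windows Cxcl10 held 3 NF-kB matches, of which a pair overlap, beside a match to the interferon element and an AP-1 match. Nfkbia held 1 NF-kB match, Dusp1 1 cyclic AMP response element and Zfp36 1 CArG box, and in Cxcl9 none of these letters occurred. RefSeq windows that reach 50 bases past the start were matched for 30 of the 38 genes. An NF-kB match occurred in those of 12 genes (Cxcl1, Cxcl2, Cxcl10, Fos, Fosb, Hspa1a, Hspa1b, Ier3, Il6, Nfkbia, Sod2 and Tnfaip3) and in 8.46% of all 32851 windows. The genes include known NF-kB targets by choice, so nothing is read from that difference. The interferon element occurred in 3.44% of all windows, the AP-1 site in 7.81%, the cyclic AMP response element in 1.79% and the CArG box in 1.63%. A match is a description of the letters, not a bound site.

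The saline matrix held 18354 barcodes and 97181787 UMIs and the Ter119 matrix 25760 barcodes and 61892074 UMIs. Of these, 11572 and 13846 cells passed the filters, with a median of 6239 and 2803 UMIs. Cells were classed by their own marker genes, and class names end in "-like" because they rest on these markers alone. Kupffer-like cells (markers such as Clec4f, Vsig4, Cd5l and Timd4) numbered 9905 in saline and 7285 in Ter119. Their median mitochondrial share was 7.32% and 5.36% of UMIs, and hemoglobin made up 0.0148% and 4.72% of their UMIs. Their Kupffer markers summed to 365 and 209 per 10000 UMIs other than hemoglobin, so the Ter119 cells held fewer marker UMIs of their own class. Neutrophil markers summed to 1.56 and 4.75 per 10000 in them, monocyte markers to 12.2 and 4.90, endothelial markers to 3.50 and 3.46, hepatocyte markers to 23.7 and 3.64, and T or NK markers to 0.0403 and 0.101. Monocyte-like cells numbered 239 and 613, neutrophil-like cells 261 and 825, and endothelial-like cells 670 and 1171. The class of T-like or NK-like cells held 29 and 123. Markers placed 344 saline cells and 2529 Ter119 cells in no class. Of these, 113 and 1001 had Kupffer markers above the level of that class, but were near another class or short of markers. They are left out of the Kupffer-like sums, and their part in the ratios was not tested. In all, 133 barcode sequences occur in both matrices.

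In Kupffer-like cells, many immediate-early factors and the NF-kB factors and inhibitors stood lower in the Ter119 library, while Cxcl9, Ccl4 and Ccl5 stood higher by less than 2-fold. Those 3 levels carry limits. Cxcl9 turned in cells with at most 5% mitochondrial UMIs, and also in cells of 15 to 30%, which the filter left out. An erythroid-like class of the Ter119 library held Ccl5 at 85.6 CPM and Ccl4 at 30.4 CPM, against 25.3 and 34.2 CPM in Ter119 Kupffer-like cells. Hemoglobin made up 51.1% of UMIs in that class, which lowers its CPM of other genes. Levels are UMIs per 1000000 UMIs of the class (CPM), and because the library counts 3′ ends, a UMI stands for a transcript whatever its length. Of the 38 genes, 26 reached 20 CPM in at least 1 library and 12 did not. Among the 26, 11 were at least 2-fold lower in Ter119, against a background of 9.29% of all 6435 genes at that level, and 0 were at least 2-fold higher, against 3.48%. The median log2 ratio of Ter119 over saline was -0.76 for the 26 genes and -0.25 for all genes. Standing lower at all was common, as 17 of the 26 genes and 4435 of all 6435 genes had a ratio under 1. Scaled by TMM factors, which bring the median of all genes to 0.03, 6 of 26 were 2-fold lower against 5.19% of all genes, and 1 was 2-fold higher against 5.64%. That scaling moved higher calls from 27.3% to 52.1% of all calls over all genes. Immediate-early and heat shock genes had 7 of 14 at least 2-fold lower (median -1.06), and cytokine and NF-kB genes 4 of 12 (median -0.59).

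**Figure D1:**
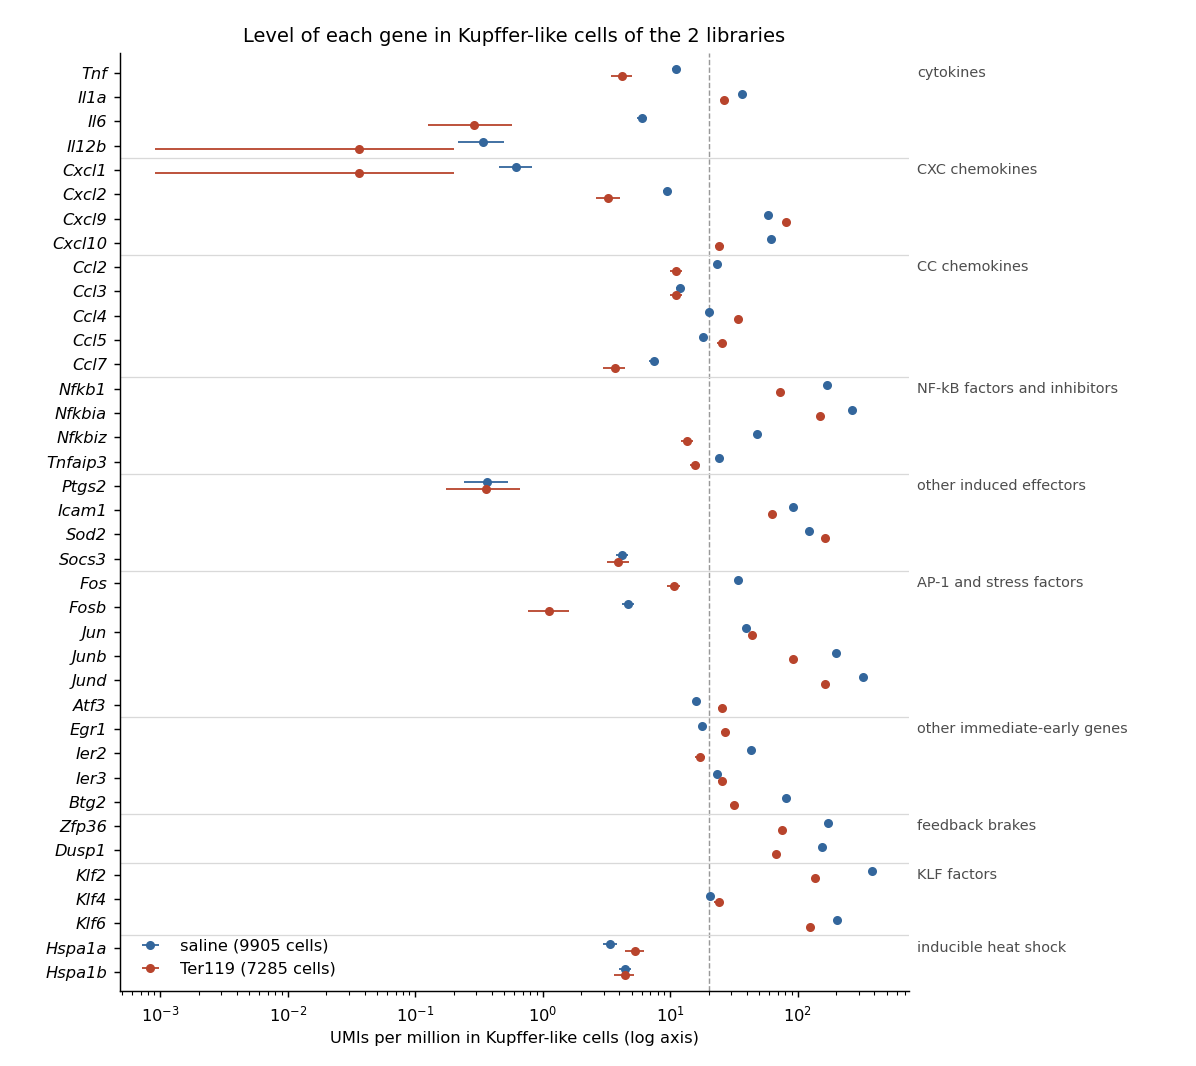
Level of each of the 38 genes in Kupffer-like cells, in CPM on a log axis, for the saline library (blue) and the Ter119 library (red). Points are the pooled value of each library, bars are exact 95% Poisson intervals for counting error, and the dashed line marks 20 CPM. Klf2, Jund, Nfkbia, Junb and Zfp36 lie far to the right and lower in Ter119, whereas Cxcl9, Ccl4, Sod2, Atf3 and Egr1 lie higher in Ter119.

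The classic cytokines were scarce. Il1a, the gene of a cytokine released from stressed or dying cells, was at 36.5 CPM in saline and 26.6 in Ter119 (ratio 0.729, 0.671 to 0.791). Tnf, the main early macrophage cytokine, had 819 UMIs in saline and 115 in Ter119, which is 11.0 and 4.16 CPM. Both Tnf values lay under 20 CPM, with the saline level 2.65 times the Ter119 level (2.18 to 3.25). Il6, which drives the acute phase response of hepatocytes, had 448 UMIs in saline and 8 in Ter119 (6.04 and 0.290 CPM). The Il6 level was 20.9 times lower in Ter119 (10.49 to 48.6), the widest gap among the 38 genes in these cells. Il12b, a subunit of interleukin 12 and interleukin 23, had 25 UMIs and 1 UMI (ratio 0.107, 0.00262 to 0.656).

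The chemokines did not move together. Cxcl10 was at 61.5 CPM in saline and 24.3 in Ter119 (ratio 0.395, 0.364 to 0.429), with counts of 4560 and 671. Its neighbour Cxcl9, which signals through the same receptor on T cells, was at 58.7 and 80.9 CPM (ratio 1.38, 1.31 to 1.45). The pair was thus at a like level in saline and apart in Ter119. The direction of Cxcl9 turned when only cells with at most 5% mitochondrial UMIs were kept (log2 ratio -0.23), and that of Jun, below, did too (-0.02). In cells of 5 to 10% and 10 to 15% the Cxcl9 ratio was 1.76 and 1.21. In cells of 15 to 30%, which the filter left out, it was 0.515 (0.319 to 0.792), on 371 and 22 UMIs. Among CC chemokines, Ccl2, which recruits monocytes, was at 23.2 and 11.1 CPM (ratio 0.478, 0.422 to 0.540), just past the 2-fold line. Ccl4, which attracts macrophages and lymphocytes, was at 19.98 and 34.2 CPM (ratio 1.71, 1.58 to 1.86), and Ccl5, known as a product of activated T cells, at 18.2 and 25.3 CPM (ratio 1.39, 1.27 to 1.52). Ccl4 was the gene past 2-fold higher under TMM factors (log2 ratio 1.06). The remaining chemokines lay under 20 CPM. The neutrophil attractant Cxcl2 had 701 and 90 UMIs (2.90 times lower in Ter119), the monocyte attractant Ccl7 550 and 101 (2.03 times lower), and Ccl3 884 and 308 (11.9 and 11.2 CPM). Cxcl1, also a neutrophil attractant, had 46 UMIs in saline and 1 in Ter119 (ratio 0.0584, 0.00145 to 0.342).

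All 4 NF-kB factors and inhibitors stood lower in Ter119, 2 of them by at least 2-fold. Of all 6435 genes, 4435 stood lower and 9.29% did so by at least 2-fold. Nfkbiz, an atypical nuclear inhibitor that also serves as a coactivator of secondary response genes, was at 47.6 and 13.5 CPM, 3.51 times lower (3.16 to 3.92). Nfkb1, the gene of the p105 precursor and p50 subunit, was at 170 and 73.3 CPM, 2.32 times lower (2.22 to 2.44). Nfkbia, the gene of the main cytoplasmic inhibitor, was at 266 and 151 CPM (ratio 0.568, 0.549 to 0.587), and Tnfaip3, which encodes the inhibitor A20, at 24.3 and 15.6 CPM (ratio 0.644, 0.578 to 0.715). The induced effectors were mixed, with Sod2 higher and Icam1 lower in Ter119. Sod2, the mitochondrial superoxide dismutase, was at 122 and 163 CPM (ratio 1.34, 1.30 to 1.39), and the adhesion gene Icam1 at 91.4 and 62.8 CPM (ratio 0.687, 0.652 to 0.725). Socs3, a brake on cytokine receptors, was at 4.19 and 3.91 CPM, and Ptgs2, the inducible cyclooxygenase, had 27 and 10 UMIs.

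Among AP-1 genes, the Fos family and 2 Jun genes stood lower and the others did not. Fos was at 34.2 and 10.6 CPM, 3.21 times lower in Ter119 (2.84 to 3.63), and Fosb, under 20 CPM, at 4.68 and 1.12 CPM with 347 and 31 UMIs. Junb was at 201 and 91.9 CPM, 2.19 times lower (2.10 to 2.28). Jund, the most steadily expressed Jun gene in most tissues, was at 328 and 164 CPM, 1.99 times lower (1.93 to 2.06) and thus just short of the 2-fold line. Jun was at 39.1 and 43.7 CPM (ratio 1.12, 1.05 to 1.197), and the stress factor Atf3 at 15.9 and 25.7 CPM (ratio 1.61, 1.47 to 1.77). The other immediate-early genes also split. Egr1, a zinc finger factor, was at 17.7 and 26.9 CPM (ratio 1.52, 1.39 to 1.67), and Ier3, a survival gene and NF-kB target, at 23.4 and 25.6 CPM. Ier2 was at 43.4 and 17.1 CPM, 2.55 times lower in Ter119 (2.31 to 2.81), and the antiproliferative gene Btg2 at 80.3 and 31.5 CPM, 2.55 times lower (2.37 to 2.74).

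Both feedback brakes stood lower by at least 2-fold, beside 9.29% of all genes. Zfp36 encodes tristetraprolin, which marks cytokine mRNAs for decay, and was at 173 and 75.6 CPM, 2.29 times lower in Ter119 (2.18 to 2.40). Dusp1, a phosphatase that switches off stress kinases, was at 154 and 67.4 CPM, 2.28 times lower (2.17 to 2.40). Klf2, a factor that restrains inflammatory genes in myeloid and endothelial cells, was at 386 and 137 CPM, 2.82 times lower (2.73 to 2.92), the highest of the 38 genes in saline. Klf6 was at 202 and 125 CPM (ratio 0.618, 0.595 to 0.641), and Klf4 at 20.4 and 23.9 CPM (ratio 1.17, 1.07 to 1.29). The inducible heat shock genes were near the bottom in both libraries. Hspa1a was at 3.38 and 5.25 CPM and Hspa1b at 4.40 and 4.38 CPM. Because these are near-identical copies, reads may be split between them. In Ter119, 2 cells with at least 5 UMIs held 24.1% of the 145 Hspa1a UMIs, and 4 held 25.6% of the 121 Hspa1b UMIs. In saline, 1 such cell held 1.99% of the 251 Hspa1a UMIs and 1 held 1.53% of the 326 Hspa1b UMIs. Under TMM factors Ccl2, Nfkb1, Junb, Zfp36 and Dusp1 were no longer 2-fold lower (log2 ratios of -0.78, -0.94, -0.85, -0.91 and -0.91), while Cxcl10, Nfkbiz, Fos, Ier2, Btg2 and Klf2 were.

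Other genes of the same pathways were lower in part, and the chaperones were not. Of 26 further NF-kB pathway genes, 21 reached 20 CPM in Kupffer-like cells, with 5 at least 2-fold lower in Ter119 and 1 higher (median log2 ratio -0.70), beside 9.29% lower, 3.48% higher and a median of -0.25 over all genes. The widest of these gaps were in Cd40, a costimulatory receptor (29.4 and 6.63 CPM), in the inhibitor Nfkbie (20.8 and 7.64 CPM) and in Bcl2a1b, a survival gene, which stood 3.81 times higher (58.4 and 222 CPM) and has near-identical copies that may share its reads. Among cytokine receptors, Tnfrsf1b, a receptor for TNF, was at 202 and 78.1 CPM (2.58 times lower), and Il6ra, the interleukin 6 receptor, at 213 and 96.1 CPM (2.21 times lower). Among interferon gamma signal genes, the transcription factor Irf1 was at 157 and 67.9 CPM (2.31 times lower), and the receptor chain Ifngr1 at 531 and 270 CPM (1.97 times lower). Of 19 further immediate-early genes 11 reached 20 CPM, with 3 lower and 0 higher (median -0.67), beside the same 9.29%, 3.48% and -0.25 over all genes: Myc (28.0 and 12.6 CPM), Ppp1r15a (20.7 and 9.38 CPM) and Fosl2 (28.7 and 13.5 CPM). Of 12 further heat shock and chaperone genes 10 reached it, with 0 lower and 0 higher (median 0.07). Hspe1 (201 and 386 CPM), Hsp90aa1 (263 and 418 CPM) and Hsp90ab1 (1186 and 1731 CPM) were named from that list by the size of their log2 ratio.

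Since cell isolation can induce these genes, the cells were compared within ranges of mitochondrial share and of UMIs per cell. The 17 immediate-early and heat shock genes summed to 1730 CPM in saline and 876 in Ter119 (ratio 0.507, 0.500 to 0.514), and the 21 cytokine and NF-kB genes to 990 and 709 CPM (ratio 0.716, 0.704 to 0.727). Within cells of 0 to 5%, 5 to 10% and 10 to 15% mitochondrial UMIs, the ratio of the first sum was 0.524, 0.496 and 0.535. In 1985 saline and 440 Ter119 cells of 15 to 30%, which the filter had left out, it was 0.449. Saline levels of that sum ranged from 1654 to 1741 CPM over these 4 ranges and Ter119 levels from 743 to 928. The ranges are parts of the same 2 libraries and not replicates. From the lowest range to the highest, 10, 12, 8 and 12 of the 26 genes were at least 2-fold lower, beside 9.73%, 9.23%, 8.02% and 9.42% of all genes. By UMIs per cell, the ratio was 0.645 in cells with 1000 to 2000 UMIs, 0.504 at 2000 to 4000, 0.435 at 4000 to 8000 and 0.449 above that, where Ter119 had 145 cells. In the same order 2, 12, 12 and 13 of the 26 genes were at least 2-fold lower, beside 8.87%, 8.03%, 13.1% and 15.1% of all genes. Above 8000 UMIs Ccl4 (ratio 2.57) and Ccl5 (ratio 2.62) were at least 2-fold higher, beside 3.9% of all genes, and in the cells with fewest UMIs the count of lower genes was close to the share of all genes. The suspensions were pooled before capture, and what isolation contributed to either level was not tested.

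**Figure D2:**
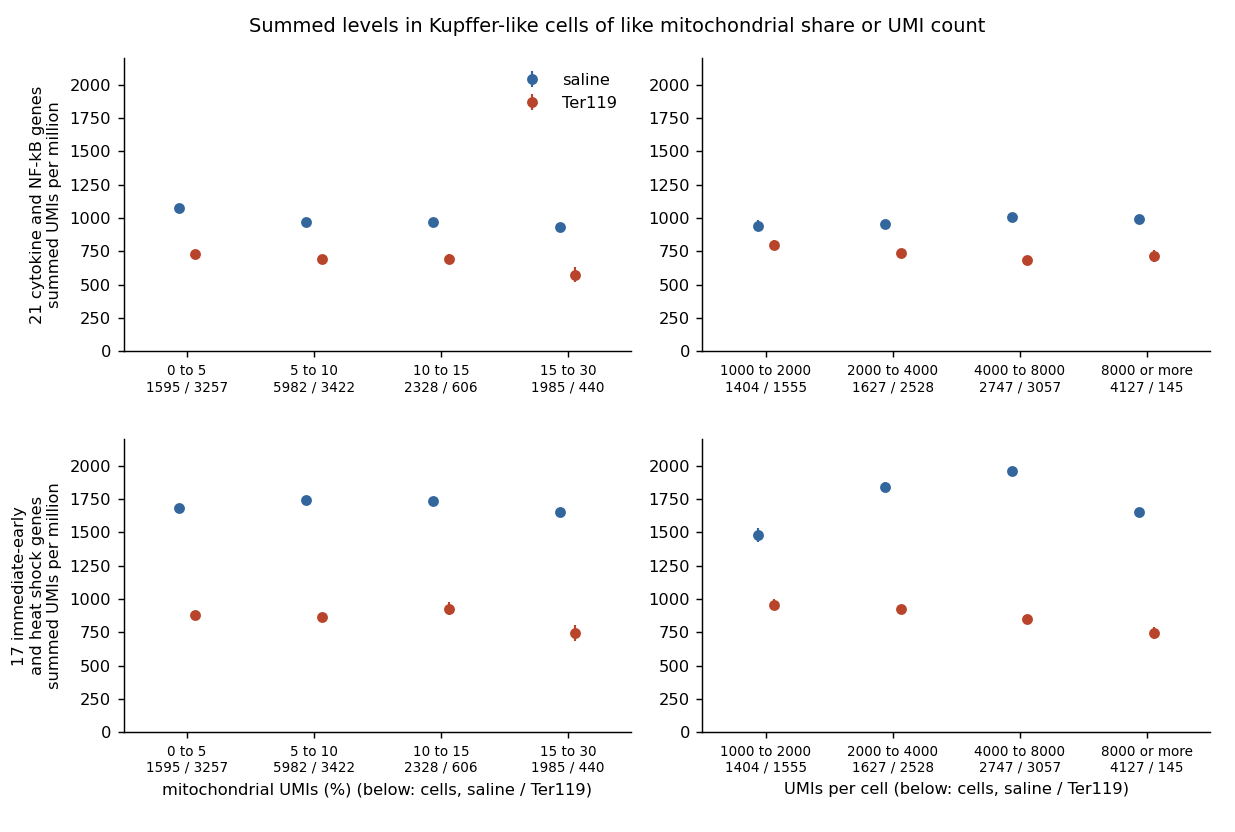
Summed level of the 21 cytokine and NF-kB genes (top) and the 17 immediate-early and heat shock genes (bottom) in Kupffer-like cells, in CPM, by mitochondrial share (left) and by UMIs per cell (right), with exact 95% Poisson bars and the cell numbers of both libraries under each range. Saline (blue) lies above Ter119 (red) in all 8 ranges of both sums, and the lower sums lie closest in cells with 1000 to 2000 UMIs.

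Some of these genes sat in few cells and others were spread over many. Among 9905 saline Kupffer-like cells, 41 held 50% of the 4356 Cxcl9 UMIs, and 1 cell held 316. For Ccl5 it was 42 cells, for Cxcl10 121, for Ccl4 89, for Egr1 86 and for Cxcl2 22. By contrast, 1844 cells held 50% of the Jund UMIs, 1649 of Klf2, 1580 of Nfkb1 and 1508 of Nfkbia. Because such numbers depend on level and depth, each cell was thinned to 1000 UMIs and the variance over the mean across cells (Fano factor) was taken, which is 1 for UMIs that fall on cells by chance and had a median of 1.02 in saline and 1.013 in Ter119 over all genes with at least 100 thinned UMIs. In saline it was 4.15 for Cxcl9, 2.47 for Ccl5, 2.44 for Cxcl10 and 2.21 for Ccl4, and 0.724% of all genes reached 1.5. Egr1 (1.41), Dusp1 (1.32) and Ccl2 (1.30) followed. In Ter119 the same 4 chemokines led, with 3.29 for Ccl5, 2.65 for Cxcl10, 1.95 for Cxcl9 and 1.44 for Ccl4, and 0.738% of all genes reached 1.5. The lower Cxcl9 value in Ter119 went with a wider spread, since 139 of 7285 cells held 50% of its UMIs and the highest cell had 33. In saline the lowest values among the genes described were those of Il1a (1.013 in saline and 1.009 in Ter119), Ier3 (1.02 and 1.03) and Nfkb1 (1.04 in both). Between these and the chemokines lay genes such as Klf2 (1.21 and 1.17), Junb (1.17 and 1.05), Zfp36 (1.13 and 1.07) and Nfkbia (1.13 and 1.02). Their saline values are small but above the 90th percentile of all genes there, which was 1.07.

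By another rule, under which the 1% of cells with most of a gene hold at least 25% of its thinned UMIs, 16 of 27 genes in saline and 14 of 24 in Ter119 were concentrated, but so were 56.5% and 53.1% of all genes, because any gene of low level passes it. For Ier3 in saline that share was 50.0%, against 48.1% if each of those cells held a single UMI. For Cxcl9 it was 63.8% against 18.3%, and for Cxcl10 48.3% against 17.4%. In Ter119 it was 38.8% against 12.9% for Cxcl9, and 70.5% against 44.0% for Cxcl10, which had fewer UMIs there.

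**Figure D3:**
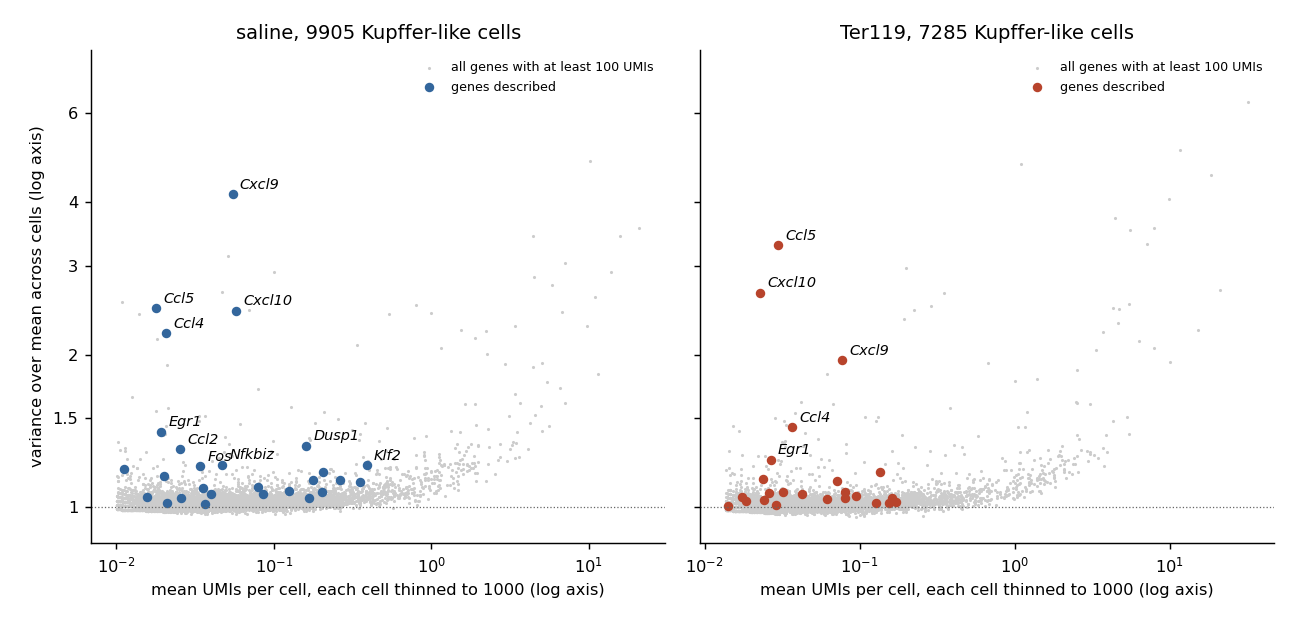
Variance over mean across Kupffer-like cells against mean UMIs per cell, each cell thinned to 1000 UMIs, both axes log, for saline (left) and Ter119 (right). Grey points are all genes with at least 100 thinned UMIs and coloured points the genes described, named where the value is at least 1.2. Cxcl9, Cxcl10, Ccl4 and Ccl5 stand clear of genes of like level in both libraries, and the immediate-early and NF-kB genes lie between 1 and 1.41.

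The concentrated genes shared cells. Of the thinned saline cells, 393 had a Cxcl10 UMI, and against the other cells these held 10.2 times the Cxcl2 level (6.05 to 16.7), 7.33 times the Cxcl9 level (5.96 to 8.97), 4.08 times the Tnf level (2.14 to 7.24) and 3.81 times the Nfkbiz level (2.87 to 4.98). Klf2 and Nfkb1 did not differ beyond counting error in them, with ratios of 0.916 (0.768 to 1.08) and 1.07 (0.833 to 1.37). The 295 cells with a Cxcl9 UMI held 8.89 times the Cxcl10 level (7.22 to 10.9) and 5.36 times the Ccl5 level (3.36 to 8.22), but for Fos the ratio was 0.792 (0.339 to 1.58). Cells with Egr1 also held more of some CC chemokines. Yet Pearson correlations of log counts over all thinned cells were weak, among genes with at least 100 thinned UMIs. In saline the largest was 0.185 (Cxcl9 with Cxcl10), and Ccl2 reached 0.112 with Cxcl10 and 0.116 with Ccl4. No pair with Egr1 reached the 0.102 of Cxcl10 with Nfkbiz. In Ter119 the largest was 0.106 (Ccl4 with Ccl5). The 159 cells with an Egr1 UMI held 14.3 times the Ccl7 level (7.38 to 25.9), 9.35 times the Ccl4 level (5.99 to 14.1) and 5.34 times the Fos level (3.46 to 7.92), and the 151 cells with a Ccl4 UMI 15.2 times the Ccl3 level (8.995 to 24.7). The 309 Fos cells held 4.94 times the Fosb level (1.88 to 11.1) and 3.84 times the Egr1 level (2.31 to 6.05). In Ter119, the 122 Cxcl10 cells held 4.11 times the Cxcl9 level (2.86 to 5.75), and the 226 Ccl4 cells 7.96 times the Ccl3 level (3.97 to 14.9) and 6.67 times the Ccl5 level (4.57 to 9.51).

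Markers of other cells moved with some of these genes within the Kupffer-like class. The 135 Ter119 cells with a Ccl5 UMI held 27.0 times the T or NK marker level of the other cells (16.2 to 44.1), at 1.93 per 10000 UMIs, and in the 122 saline Ccl5 cells it was 15.4 times (4.62 to 40.8), at 0.410 per 10000. The 77 Ter119 cells with a Fos UMI held 3.26 times the neutrophil marker level (2.72 to 3.89), and the 309 saline Fos cells 1.94 times (1.58 to 2.37). Cxcl2 cells held 4.48 times the neutrophil markers in Ter119 and 3.15 times in saline. In Cxcl9 cells the endothelial markers were 1.58 times in saline and 1.64 times in Ter119, while Cxcl10 cells in saline differed less (monocyte markers 1.13 times, endothelial markers 1.14 times, neutrophil markers 0.905 times). In the 122 Ter119 Cxcl10 cells the endothelial markers were 1.48 times (1.12 to 1.92), the neutrophil markers 1.41 times (1.13 to 1.73) and the monocyte markers 1.17 times (0.903 to 1.49). Ter119 Ccl4 cells held 5.77 times the T or NK markers (2.83 to 10.8) and 1.65 times the neutrophil markers. The part of doublets and of free RNA in these values was not tested. Kupffer markers in Cxcl9, Cxcl10, Ccl4 and Egr1 cells were 0.904 to 0.974 times those of other saline cells.

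**Figure D4:**
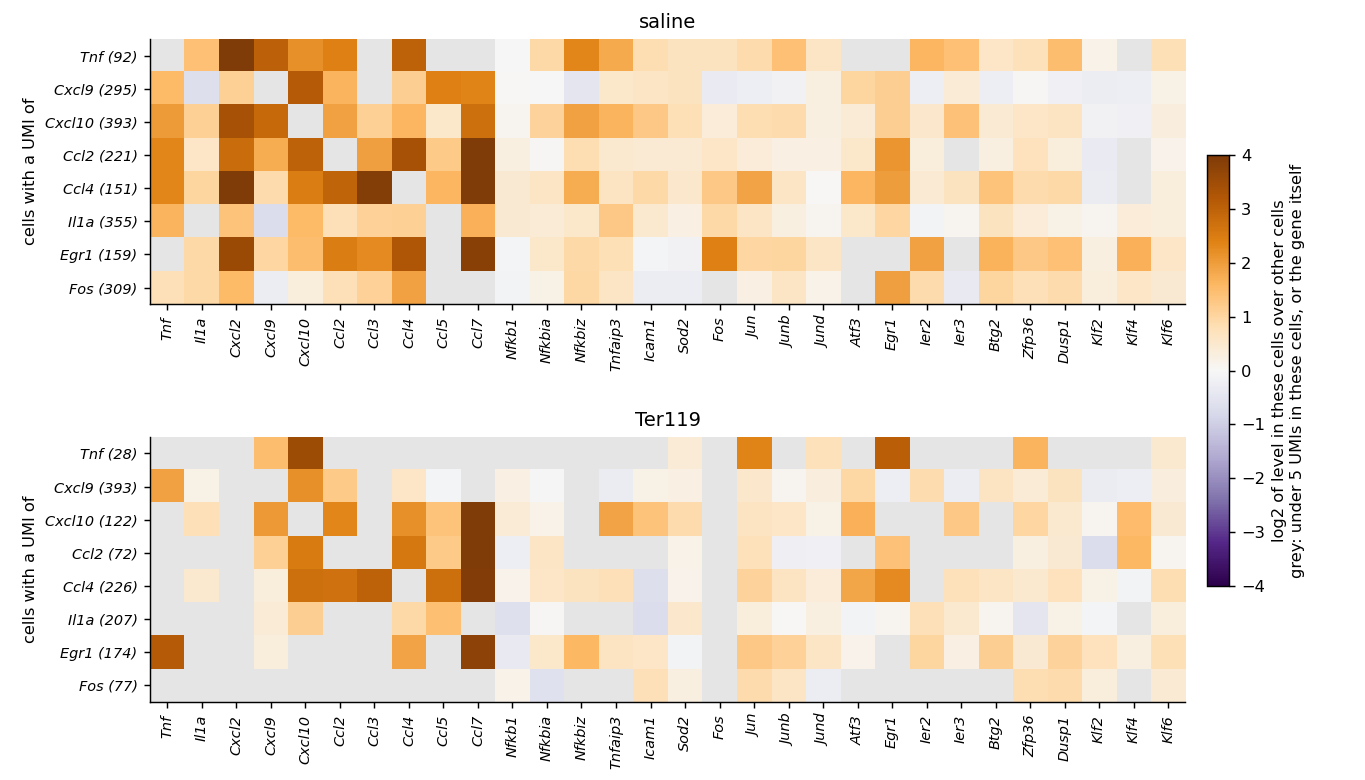
Log2 of each gene's level in the Kupffer-like cells that hold a UMI of the row's gene over its level in the other Kupffer-like cells, each cell thinned to 1000 UMIs, for saline (top) and Ter119 (bottom), with the number of row cells in brackets. Grey squares have under 5 UMIs in the row's cells or are the gene itself. Chemokine columns are darkest in chemokine and Tnf rows, and Klf2 and Nfkb1 stay pale in the saline rows.

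Outside Kupffer-like cells the same genes differed by class, all compared between the same 2 libraries. In monocyte-like cells, 5 of 27 genes were at least 2-fold lower in Ter119 (background 3.16%) and 2 were higher (background 2.53%), with a median log2 ratio of -0.46 against -0.10 for all genes. The interferon-inducible chemokines were high here in saline and lower in Ter119, with Cxcl9 at 766 and 295 CPM (ratio 0.385, 0.341 to 0.434) and Cxcl10 at 595 and 210 CPM (ratio 0.353, 0.306 to 0.406). Ccl5 (507 and 248 CPM), Tnfaip3 (66.3 and 24.0 CPM) and Zfp36 (247 and 117 CPM) were also 2-fold lower. Cxcl2 and Ccl4 were higher, on 7 and 35 UMIs and on 17 and 55 UMIs. Sod2 stood at 358 and 353 CPM, Klf2 at 544 and 437 CPM, Nfkbia at 389 and 312 CPM, Nfkb1 at 348 and 213 CPM and Klf4 at 273 and 220 CPM. Junb was at 314 and 180 CPM, Jund at 239 and 201 CPM, Klf6 at 201 and 146 CPM, Btg2 at 185 and 123 CPM, Icam1 at 142 and 77.0 CPM and Ier2 at 122 and 82.2 CPM. Genes of early granulocyte progenitors moved with the monocyte gate, as Prtn3 was at 11.0 and 354 CPM, Elane at 1.15 and 371 CPM and Mpo at 0 and 129 CPM, and their part in these ratios was not tested.

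Endothelial-like cells are not macrophages but came through the same digestion as the Kupffer-like cells of their own library. They had 2 of 22 genes at least 2-fold lower (background 3.69%) and 2 higher (background 2.83%), with a median of -0.36 against -0.13 for all genes. Dusp1 was at 387 and 91.7 CPM, 4.22 times lower in Ter119 (ratio 0.237, 0.200 to 0.280), beside a ratio of 0.438 (0.417 to 0.460) in Kupffer-like cells. Klf4 was at 64.7 and 31.5 CPM (ratio 0.487, 0.353 to 0.665). Cxcl9 was at 445 and 742 CPM (ratio 1.67, 1.54 to 1.81) and Cxcl10 at 199 and 272 CPM (ratio 1.37, 1.203 to 1.55). In monocyte-like cells the ratios of these chemokines were 0.385 and 0.353, and the difference between the classes was not tested. Ier3 (31.1 and 77.7 CPM) and Socs3 (23.0 and 48.4 CPM) were 2-fold higher. Klf2 was at 479 and 301 CPM, Nfkbia at 280 and 239, Jund at 200 and 153, Nfkb1 at 198 and 146, Jun at 118 and 93.4, Klf6 at 111 and 123 and Junb at 100.2 and 68.1 CPM. With at most 5% mitochondrial UMIs 7 of 24 genes were 2-fold lower in this class, beside 12.5% of all genes.

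**Figure D5:**
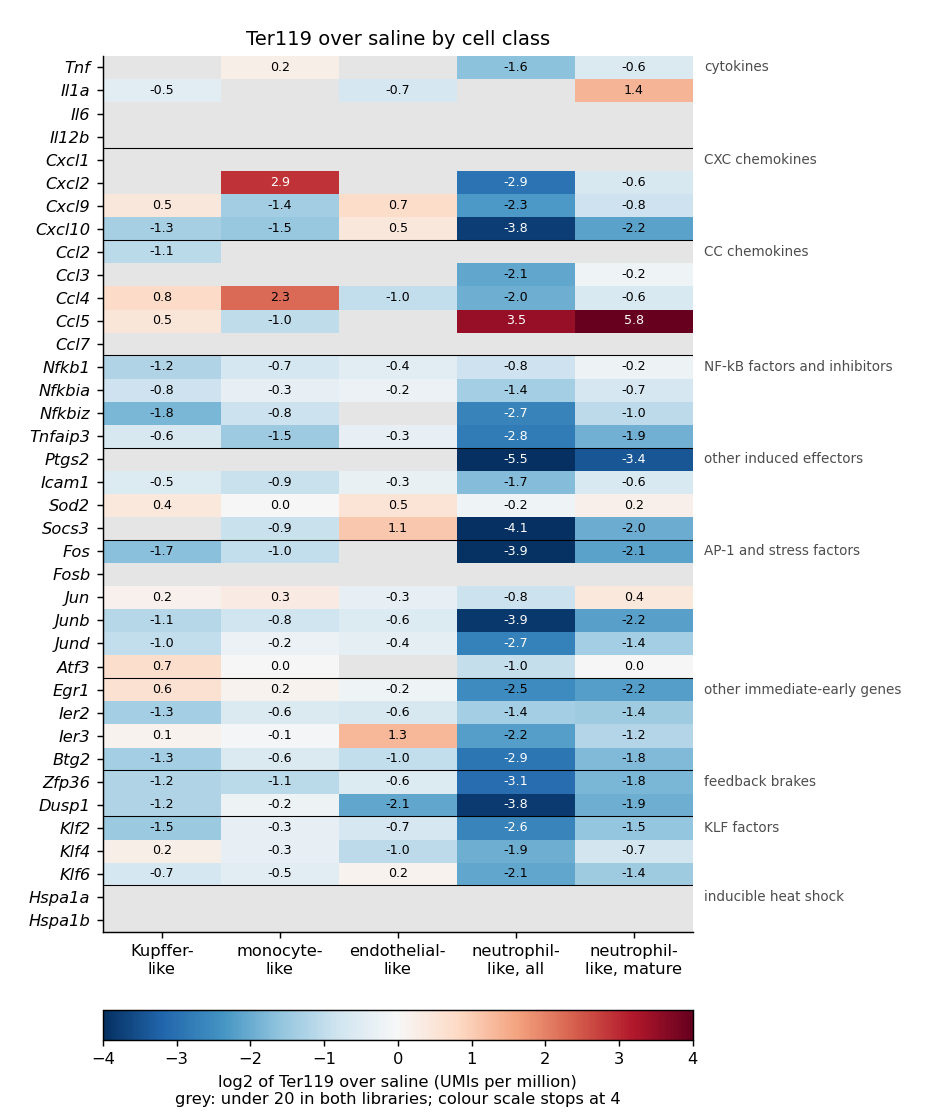
Log2 ratio of Ter119 over saline for each of the 38 genes in Kupffer-like, monocyte-like, endothelial-like, all neutrophil-like and mature neutrophil-like cells, from CPM summed over the cells of each class. Grey marks genes under 20 CPM in both libraries, and the colour scale stops at 4 on either side. The column of all neutrophil-like cells is the darkest, and it pales for most genes when only mature cells are compared. Ccl5 does not pale, and Il1a, grey among all neutrophil-like cells, is higher there on 7 and 10 UMIs.

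In neutrophil-like cells, 24 of 29 genes were at least 2-fold lower in Ter119 (background 25.8%) and 1 was higher (background 11%), with a median of -2.29 against -0.31 for all genes. In saline their level was the highest among the 7 classes for genes that include Junb at 1143 CPM, Dusp1 at 1022, Zfp36 at 734, Btg2 at 617, Klf6 at 607 and Fos at 362 CPM. Their Ter119 values were 78.8, 71.4, 88.5, 82.9, 144 and 23.5 CPM. The cells also differed in maturity. Leading genes of the Ter119 cells included Camp, Ngp and Ltf, granule genes of immature neutrophils, beside S100a8, S100a9 and Lcn2. Camp, Lcn2, S100a8 and S100a9 were among the leading genes of the saline cells too. Cells with more UMIs of Retnlg, Csf3r, Cxcr2 and Mmp9 than of Camp, Ngp and Ltf were called mature, a rule set after the data were seen. By it 259 of 261 saline cells (99.2%, 97.3 to 99.9%, exact binomial) were mature, and in Ter119 196 of 825 (23.8%, 20.9 to 26.8%). Among mature cells 16 of 30 genes were 2-fold lower (background 18.4%) and 2 were higher (background 18.6%), with a median of -1.10 against -0.03 for all genes. Within them Junb was at 1201 and 266 CPM (ratio 0.221, 0.177 to 0.274), Dusp1 at 1072 and 279 CPM (ratio 0.261, 0.209 to 0.321), Klf2 at 922 and 315 CPM and Fos at 380 and 85.8 CPM. Nfkb1, at 133 and 116 CPM, did not differ beyond counting error (ratio 0.872, 0.588 to 1.28). The 2 higher genes of mature cells were Ccl5 (7.75 and 418 CPM) and Il1a (10.8 and 27.7 CPM). Il1a rests on 7 and 10 UMIs and did not differ beyond counting error (ratio 2.55, 0.876 to 7.89).

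Among chemokines in all neutrophil-like cells, Cxcl10 was at 246 and 17.97 CPM, Cxcl9 at 183 and 37.3, and Cxcl2 at 181 and 23.5 CPM. Of the induced effectors, Socs3 was at 168 and 10.1 CPM and Ptgs2, with 58 and 4 UMIs, at 85.4 and 1.84 CPM. Klf2 was at 894 and 144 CPM, Nfkb1 at 134 and 75.1, Nfkbia at 421 and 165, Nfkbiz at 164 and 25.8, Jund at 837 and 128, Ier2 at 196 and 75.6 and Ier3 at 141 and 30.4 CPM. Ccl5 alone was higher, on 5 UMIs in saline and 180 in Ter119 (7.37 and 82.9 CPM), and T or NK markers in these cells went from 0.309 to 0.806 per 10000 UMIs.

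T-like or NK-like cells held the highest Ccl5 level of any class in both libraries. It was 7299 CPM in saline (29 cells) and 24624 in Ter119 (123 cells), with Ccl4 at 910 and 4822 CPM and Ccl3 at 168 and 2376 CPM. Of the 25 genes measured there, 4 were at least 2-fold higher (background 9.15%) and 8 lower (background 20.7%). Kupffer-like cells held 28.3% of all Ccl5 UMIs in the saline cells and 7.63% in the Ter119 cells, against 96.2% and 70.1% of Ccl2. Other genes above 100 CPM in T-like or NK-like cells were Jund (889 and 344 CPM), Nfkbia (252 and 253), Cxcl10 (242 and 20.7), Nfkb1 (231 and 129), Klf2 (231 and 257), Btg2 (221 and 74.6), Junb (194.6 and 211), Icam1 (142 and 49.8), Zfp36 (110 and 49.8), Klf6 (94.7 and 129) and Sod2 (94.7 and 112). Dendritic-like cells, 39 in saline and 44 in Ter119, were led by Btg2 (397 and 252 CPM) and Nfkb1 (372 and 187). In the same cells Jund (238 and 236), Junb (194 and 220), Klf4 (171 and 97.6), Nfkbia (149 and 244), Klf2 (132 and 130), Zfp36 (125 and 40.7), Klf6 (113 and 146), Sod2 (80.8 and 114) and Cxcl9 (46.5 and 106) also passed 100 CPM in a library. B-like or plasma-like cells, 70 and 39, held the most Klf2 of any class in saline (1123 and 691 CPM), followed by Jund (845 and 528), Btg2 (352 and 94.8), Nfkb1 (203 and 108), Zfp36 (198 and 40.6), Nfkbia (181 and 94.8) and Klf6 (156 and 122). The Ter119 library also held 1186 erythroid-like cells, 51.1% of whose UMIs were hemoglobin and which carried Kupffer markers at 122 per 10000 other UMIs. In them Ccl5 was at 85.6 CPM, Cxcl9 at 57.8, Ccl4 at 30.4, Cxcl10 at 18.5 and Fos at 8.39 CPM. The Ter119 Kupffer-like level of Ccl5 (25.3 CPM) is below that value. Those of Ccl4 (34.2) and Fos (10.6) are close to the erythroid-like values, and that of Cxcl9 is 80.9 CPM. These CPM count hemoglobin, which made up only 4.72% of UMIs in Ter119 Kupffer-like cells. Per UMI other than hemoglobin, Ccl4, Fos and Cxcl9 would also be lower in Kupffer-like than in erythroid-like cells. In the 70 saline B-like or plasma-like cells, Ccl4 had 14 UMIs (34.7 CPM) and Ccl5 8 UMIs (19.8 CPM), against 19.98 and 18.2 CPM in saline Kupffer-like cells. Free RNA was not measured in empty droplets here.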

How the data were processed

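The deposited values are raw UMI counts per gene and cell, which the authors made with Cell Ranger 6.0.2 per the file headers. Per the submitters' processing notes the genome build was GRCm38.p6, and the tools named there without a role are DESeq2 1.26.0, Seurat 3.2.3, Scanpy 1.7.0 and a Cell Ranger of version 4.0.0, and how the pooled mice were separated is not stated in them. Cells with at least 1000 UMIs, 500 genes and at most 15% mitochondrial UMIs were kept. A class needed marker UMIs above a level per 10000 UMIs without hemoglobin (100 for Kupffer-like cells) set after the scores were seen, at least 3 marker UMIs from 2 markers, and a score 1.5 times that of any other class. No doublet caller was run, and cells near the markers of several classes stayed unassigned. Counts were summed per class and library. Ratios carry exact conditional binomial intervals, levels exact Poisson intervals and shares exact Clopper-Pearson intervals, at 95%. A gene needed 20 CPM in 1 library, and 2-fold marked a call. Random draws used a fixed seed. On simulated counts the ratio script was checked against known folds. TMM factors came from edgeR 4.0.16 in R 4.3.3, and all else from Python 3.11.15 with numpy 2.4.6, scipy 1.17.1, pandas 2.3.3, scikit-learn 1.9.0, leidenalg 0.10.2 and matplotlib 3.10.9. Promoter letters are from RefSeq and were not matched for Ccl2, Ccl4, Ccl5, Ccl7, Egr1, Ier2, Nfkb1 and Nfkbiz. The 38 genes and the other lists were chosen with earlier results of these data known. Named with values are genes of the 38 with at least 20 CPM in Kupffer-like cells or 100 CPM in another class, and the 3 genes of each further list with the largest log2 ratio in size. Some genes that this rule names are not reported here. Others among the 38 are named to account for every gene. Alternatives covered scaling, filters, gates, clusters, depth and single cells of very high level.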

Additional observations from a re-analysis of the deposited data

Results flagged for a closer look

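Of the genes described, 9 were at least 2-fold lower in Ter119 in one class and at least 2-fold higher in another, over all 7 classes, counting a gene in a class where it reached 20 CPM in at least 1 library and had over 3 UMIs in 1 of them. The same count over all genes was not made, so nothing is read from the 9. Of all genes, 25.8% were 2-fold lower and 11% higher in neutrophil-like cells, and 20.7% and 9.15% in T-like or NK-like cells. The shares were 12.4% and 12% in dendritic-like cells, and 14% and 16.4% in B-like or plasma-like cells. The differences between classes were not tested, since each rests on the same pair of libraries. Values below are Ter119 over saline ratios. Cxcl2 was at 0.130 in neutrophil-like and 7.42 in monocyte-like cells, the latter on 7 and 35 UMIs. Ccl3 was at 0.235 in neutrophil-like and 14.1 in T-like or NK-like cells. Ccl4 was at 0.259 in neutrophil-like and 0.390 in B-like or plasma-like cells (14 and 1 UMIs), but at 4.802 in monocyte-like and 5.30 in T-like or NK-like cells. Ccl5 was at 0.490 in monocyte-like, 11.3 in neutrophil-like (5 and 180 UMIs) and 3.37 in T-like or NK-like cells. Cxcl9 was at 0.385 in monocyte-like, 0.204 in neutrophil-like and 0.182 in T-like or NK-like cells (13 and 3 UMIs). It was at 2.27 in dendritic-like cells (19 and 13 UMIs) and at 3.28 in B-like or plasma-like cells (5 and 3 UMIs). Cxcl10 was at 0.395 in Kupffer-like, 0.353 in monocyte-like, 0.0730 in neutrophil-like and 0.0857 in T-like or NK-like cells (46 and 5 UMIs), against 16.6 in dendritic-like cells, there on 1 and 5 UMIs. Socs3 was at 0.0604 in neutrophil-like, 0.225 in T-like or NK-like (7 and 2 UMIs) and 2.10 in endothelial-like cells. Ier3 was at 0.215 in neutrophil-like, 2.50 in endothelial-like and 13.4 in T-like or NK-like cells (1 and 17 UMIs). Dusp1 was at 0.438 in Kupffer-like, 0.0698 in neutrophil-like and 0.237 in endothelial-like cells, against 2.73 in B-like or plasma-like cells, there on 4 and 2 UMIs with an interval from 0.247 to 19.1.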

How the results depend on the processing

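With 1 library per group no replicate could be left out and no spread between animals is known. No paired analysis was possible because each group holds a single library. In Kupffer-like cells the 11 genes at least 2-fold lower became 6 under TMM factors, 6 under median-of-ratios factors and 7 (of 13) at 50 CPM, and the 0 higher became 1, 1 and, without the 1% of cells with most of each gene, 2. Their median log2 ratio of -0.76 became -0.48 under TMM factors, -0.46 under median-of-ratios factors, -0.91 at 5 CPM, -1.13 at 50 CPM, -1.09 without those cells and -0.86 in cells with 2000 to 8000 UMIs, a setting chosen after seeing the data. Leaving out the cells with most of a gene raises the ratio by construction where these cells hold more of it in saline, as for Cxcl9. The 2 lower genes of endothelial-like cells became 1 under either scaling, 5 at 5 CPM, 4 with at least 2000 UMIs, 7 with at most 5% mitochondrial UMIs and 4 in named clusters. The 5 of monocyte-like cells became 3 under either scaling, 8 at 5 CPM, 9 without the 1% of cells and 8 when thinned, and no Ter119 cluster was named monocyte-like. The genes called concentrated went from 16 in saline and 14 in Ter119 to 1 and 4 with at most 5% mitochondrial UMIs and to 10 and 5 by a Fano factor of at least 1.2, also chosen after seeing the data. The 24 lower genes of neutrophil-like cells ranged from 16 to 28. Fewer genes tested, fewer cells or the scaling itself are part of how these alternatives are built, and other causes were not tested. Single-gene ratios in Kupffer-like cells were counted only in alternatives where the gene still reached the CPM level, as in 11 for Ccl5 and 15 for Cxcl10. Among those counted, no called ratio changed sign. Of them, 344 kept their side of 2-fold, 11 passed it, 12 fell short of it and 2 moved, namely Cxcl9 and Jun at 5% mitochondrial UMIs. Depth limits Il6, Il12b, Cxcl1, Ptgs2 and Fosb most.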
